A study of Mus musculus with 6 samples.

Results

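The genes described here encode the proteins of the junctions that hold epithelial cells together: claudins and other tight junction genes, genes of adherens junctions and desmosomes, and connexins, which form gap junctions. They were chosen by symbol and not by a cut on the measured values, but with earlier results of these data known. They make up 70 of the 21534 rows of the count table. The libraries were made from ileal organoids of wild-type C57Bl/6 mice, which are closed cultures of intestinal epithelium. Every culture, controls included, first spent 96 hours with 10 µM CHIR99021. This compound blocks the kinase GSK3, which turns on Wnt signalling and raises the share of stem cells. Treated cultures then received 10 µM all-trans retinoic acid, a form of vitamin A that acts through nuclear receptors, and control cultures the DMSO vehicle, in both cases over 24 hours and with 3 libraries per group. Nothing in the labels tells if the libraries of a group stem from different mice or cultures. The p-values therefore refer only to library-to-library spread, which may be technical.

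Tight junctions seal the space between neighbouring epithelial cells near their apical side. Claudins form the strands of the seal, and some of them instead form pores that let ions or water pass between cells, so that the mixture of claudins sets how leaky an epithelium is. Adherens junctions join the actin cytoskeletons of neighbouring cells through cadherins and catenins, desmosomes join their keratin filaments, and connexins form channels that connect the cytoplasm of adjacent cells.

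Total counts ran from 14919144 to 21833846 reads per library, and library 3 of each group stood apart from the other 4 libraries on the second principal component (20% of the variance). The labels name the cells as intestinal stem cells. The stem cell markers Lgr5 and Olfm4 were present (127 ± 1.38 and 87.0 ± 18.1 CPM with vehicle; SD, n = 3), but so was the enterocyte disaccharidase gene Sis at a mean of 383 CPM, so the cultures were not stem cells alone. CPM are counts per 1000000 of the scaled library size. Markers of other tissues were low: the 10 immune markers summed to 62.7 to 65.2 CPM per library with vehicle and 77.7 to 81.5 CPM with retinoic acid, the 10 fibroblast markers to 25.5 to 31.4 and 19.1 to 20.5 CPM, and the 10 endothelial markers to 11.7 to 14.7 and 15.7 to 18.6 CPM, against 15925 to 17080 CPM for the 70 junction genes. The 8 smooth muscle and glial markers summed to at most 2.83 CPM. The defining markers Ptprc of immune cells, Col1a1 of fibroblasts and Cdh5 of endothelium had means of at most 0.639 CPM in either group. Single markers of these lists were called: Cd14 (35.6 CPM with vehicle, 47.7 with retinoic acid), Cd68 (4.31 and 7.28) and the endothelial Esam (7.45 and 13.4) were higher, and Fbln1 of the fibroblast list (23.5 and 16.2) was lower. Their part in the junction gene differences was not tested. In bulk RNA, fewer cells of a type and less RNA per cell cannot be told apart.

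Of the 70 junction genes 39 passed the filter on low counts. With retinoic acid 6 of these were higher and 4 lower, by edgeR's quasi-likelihood test with Benjamini-Hochberg adjustment over all 13700 tested genes and a threshold of 0.05. That is 25.6% of the tested members, against 9.46% of all tested genes (5.37% higher and 4.09% lower). Among genes that average 100 CPM or more, which are measured more precisely, 16.2% were called (12.6% higher and 3.6% lower). At that level 7 of 28 junction genes were called, 5 higher and 2 lower, and 16 (57.1%) had groups that did not overlap, against 33.8% of all genes there. The changes were small. The tested members ran from −0.64 to 0.55 in log2 fold change with a median of 0.04, where the median of all tested genes was −0.008, and 1 of them (Dsg3) differed by at least 1.5-fold. Libraries of the groups did not overlap for 13 members on the higher side and 6 on the lower side, 48.7% of those tested, against 25.5% of all tested genes. In the authors' deposited table, where 5.44% of all rows have an FDR under 0.05, 6 of these genes are listed as higher and 3 as lower. Its 9 calls had the same sign in the edgeR test, and Dsg3 was called by edgeR alone.

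**Figure D1:**
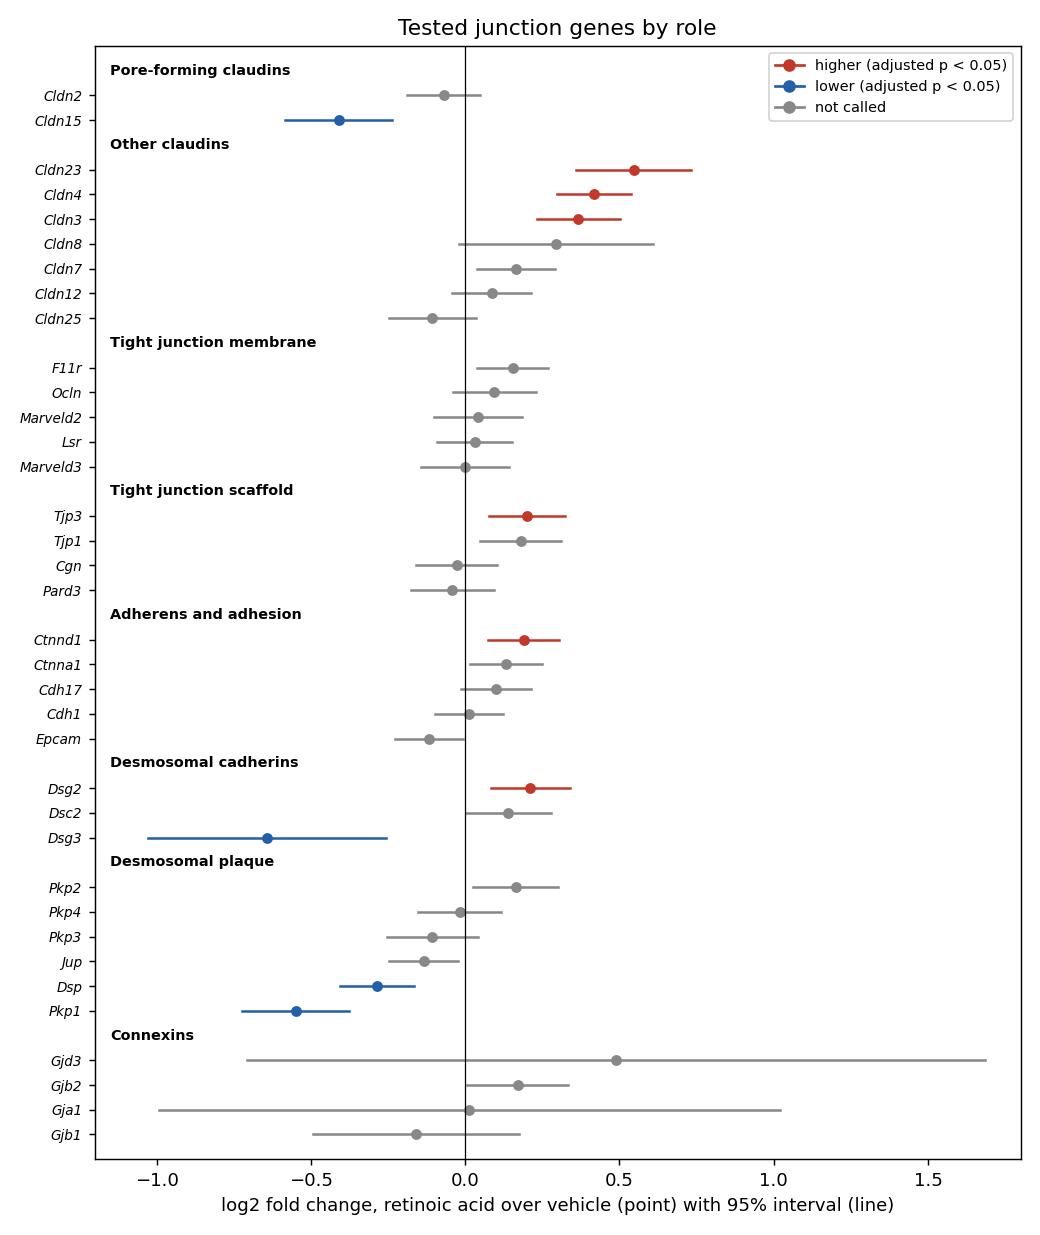
Log2 fold change of retinoic acid over vehicle for 36 of the 39 tested junction genes, grouped by role, with the 95% interval of the edgeR estimate as a line. The 6 higher genes lie between 0.19 and 0.55 and the 4 lower genes between −0.64 and −0.29. The weakly expressed Gjd3 and Gja1 have the widest intervals.

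The most abundant claudins, Cldn3 and Cldn4, rose, as did the scarcer Cldn23, while the pore-forming Cldn15 fell. Of 9 tested claudins 3 were higher and 1 lower, against 5.37% higher and 4.09% lower among all tested genes. Among genes that average 100 CPM or more, 12.6% were higher and 3.6% lower. Cldn3 and Cldn4 both encode sealing claudins and are neighbours on mm10 chromosome 5, at 134986214 to 134987476 on the plus strand and 134945126 to 134946934 on the minus strand. They point away from each other with 39279 bases between them, and no other row of the table lies wholly within that gap. Cldn15 (136966616 to 136975858, plus strand) is on the same chromosome. The sequences just upstream of RefSeq starts of these 3 genes are shown because these claudins moved most in read number. For Cldn3 and Cldn4 the RefSeq start is the start of the span given here from the deposited table. The RefSeq start of Cldn15 lies inside that span, downstream of its first base, so its window is not the sequence before the span. Each has 250 bases and ends directly before the start, is written 5′ to 3′ on the gene's strand and comes from RefSeq (GRCm38.p6, the assembly of mm10). Capitals mark matches to the motifs named after them.

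Cldn3, chr5:134985964-134986213, plus strand: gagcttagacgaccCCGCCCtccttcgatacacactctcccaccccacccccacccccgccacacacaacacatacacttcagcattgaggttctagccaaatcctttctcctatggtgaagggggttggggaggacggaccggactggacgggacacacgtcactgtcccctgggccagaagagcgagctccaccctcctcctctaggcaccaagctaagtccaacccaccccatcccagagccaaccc
Cldn4, chr5:134946935-134947184, minus strand: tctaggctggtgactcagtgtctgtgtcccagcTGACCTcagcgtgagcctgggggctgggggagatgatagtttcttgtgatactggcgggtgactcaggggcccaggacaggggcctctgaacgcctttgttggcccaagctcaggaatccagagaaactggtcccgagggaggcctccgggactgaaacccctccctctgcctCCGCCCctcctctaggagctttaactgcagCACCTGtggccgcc
Cldn15, chr5:136967619-136967868, plus strand: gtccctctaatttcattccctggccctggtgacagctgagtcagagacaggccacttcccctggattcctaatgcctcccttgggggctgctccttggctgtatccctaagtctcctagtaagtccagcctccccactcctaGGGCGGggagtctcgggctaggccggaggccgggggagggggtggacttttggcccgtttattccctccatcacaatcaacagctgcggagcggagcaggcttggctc

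Motifs were searched on both strands: AGGTCA and AGTTCA, the cores bound by many nuclear receptors, a direct repeat of such cores with 5 bases between them as bound by retinoic acid receptors, the E-box CAGGTG, the GC box GGGCGG, AACNGGTT for grainyhead-like factors, TTTATG for CDX factors and TATAAA. Motifs may overlap. The Cldn4 window holds AGGTCA on the strand opposite to the printed one (seen as TGACCT, from position −217). It also holds a GC box (CCGCCC, from −44) and an E-box (CACCTG, from −14). The windows of Cldn3 and Cldn15 hold a GC box each (from −236 and −108) and no other of these motifs. Of 32851 RefSeq windows of this length 14% hold AGGTCA, 17.2% the E-box and 32.7% the GC box. Of the 34 windows of tested junction genes 8 hold AGGTCA, 12 the E-box and 21 the GC box. The direct repeat occurs in 0.0883% of all windows and in 0 of the 34. Windows were found for 42 of the 70 genes and for 6 of the 10 called ones, so these counts do not cover every member. A match is a description of the letters and not a site.

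Cldn4 had 1532, 1525 and 1581 CPM in vehicle libraries 1, 2 and 3. In retinoic acid libraries 1, 2 and 3 it had 2092, 1923 and 2175 CPM. Every retinoic acid library lay above every vehicle library, with a gap larger than the spread within the vehicle group. The log2 fold change was 0.42 (standard error 0.06, adjusted p = 0.000245), a 1.34-fold difference. For Cldn3 the vehicle libraries had 1144, 1260 and 1310 CPM and the retinoic acid libraries 1540, 1544 and 1705 CPM. The groups did not overlap, and library 3 was the highest in each. Its log2 fold change was 0.37 (standard error 0.06, adjusted p = 0.00185), or 1.29-fold. The ratio of Cldn3 to Cldn4 counts lay between 0.747 and 0.829 in vehicle libraries and between 0.736 and 0.802 in retinoic acid libraries, so this ratio overlapped between the groups.

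Cldn23, a claudin of much lower level, had 35.9, 42.6 and 38.1 CPM with vehicle and 61.6, 53.9 and 54.7 CPM with retinoic acid. Its groups did not overlap, and its log2 fold change of 0.55 (standard error 0.09, adjusted p = 0.00105) was the largest rise among the tested junction genes, at 1.46-fold.

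Cldn15 encodes a claudin that forms cation channels in the small intestine and is known for letting sodium return to the lumen for nutrient uptake. It had 468, 526 and 511 CPM in the vehicle libraries and 334, 369 and 429 CPM in the retinoic acid libraries. All retinoic acid libraries were lower, with library 3 nearest to the vehicle range. The log2 fold change was −0.41 (standard error 0.08, adjusted p = 0.00461), and it ran from −0.51 to −0.33 with 1 library left out. Cldn2, the other tested pore-forming claudin and a gene known from crypts, had 809, 774 and 739 CPM with vehicle and 726, 721 and 765 CPM with retinoic acid. These groups overlapped, and it was not called (log2 fold change −0.07, 95% interval −0.19 to 0.05, adjusted p = 0.533).

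Because Cldn3 and Cldn4 rose and Cldn15 fell, the makeup of the claudin reads differed between the groups. Cldn4 made up 29.3% to 30.2% of all reads from the 23 claudin rows in vehicle libraries and 33.0% to 35.0% in retinoic acid libraries. Cldn15 went the other way, from 9.21% to 10.1% in vehicle libraries to 5.59% to 6.91% in retinoic acid libraries. There were 2.90 to 3.27 Cldn4 reads for each Cldn15 read with vehicle and 5.07 to 6.26 with retinoic acid. The share of Cldn2 was 14.1% to 15.9% with vehicle and 12.1% to 12.4% with retinoic acid, although its CPM was not called different. Shares of reads do not account for gene length. With counts divided by exon length, Cldn3 took the largest share in every library. On that scale Cldn15 took 8.11% to 8.78% with vehicle and 4.72% to 5.78% with retinoic acid. Cldn2 took 7.77% to 8.94% and 6.55% to 6.67%. These shares were chosen because the genes differ, and are given as descriptions without a test. The claudin rows together took 5087 to 5227 CPM with vehicle and 5831 to 6213 CPM with retinoic acid.

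**Figure D2:**
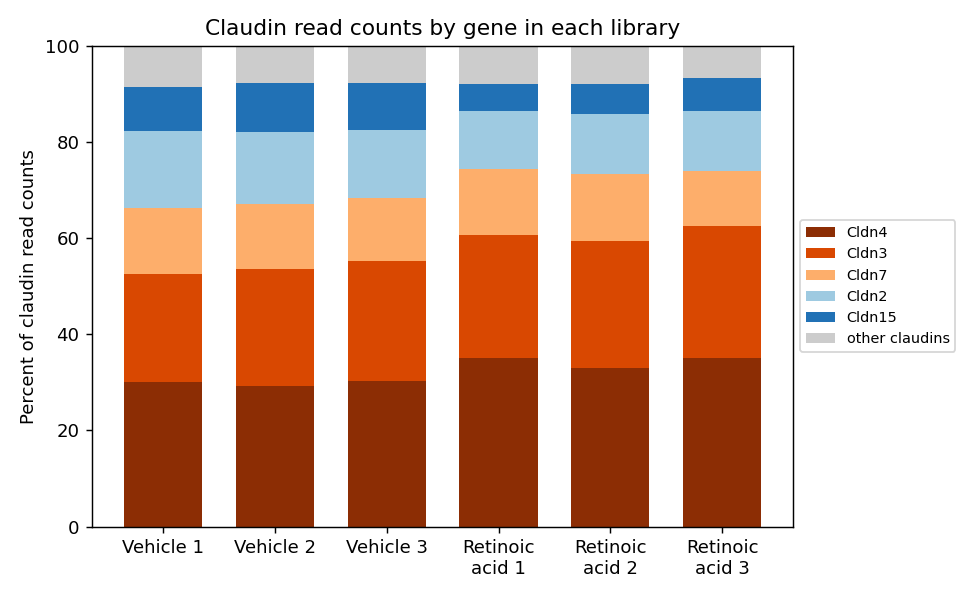
Share of claudin read counts taken by each gene in the 6 libraries, in percent of the counts over all 23 claudin rows. Cldn15, the dark blue segment, takes 9.21% to 10.1% in vehicle libraries and 5.59% to 6.91% in retinoic acid libraries, and Cldn4, at the base, takes 33.0% to 35.0% with retinoic acid.

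The other tested claudins were not called. Cldn7, a basolateral claudin that is stabilised by the adhesion molecule Epcam, had 700, 707 and 687 CPM with vehicle and 815, 813 and 722 CPM with retinoic acid. All 3 retinoic acid libraries were above the vehicle range, but library 3 only narrowly (log2 fold change 0.17, standard error 0.06, adjusted p = 0.102). Without retinoic acid library 3, Cldn7 was called (log2 fold change 0.22). Cldn8, a sealing claudin, varied most within groups. It had 57.2 to 78.5 CPM with vehicle and 61.6 to 101 CPM with retinoic acid, with library 3 the lowest of each group. Its log2 fold change was 0.29 (95% interval −0.02 to 0.61, adjusted p = 0.268). The call of Cldn8 depended on the setting: it was called higher with no low-count filter and with the replicate number as a block. Dropping retinoic acid library 3, alone or together with its vehicle counterpart, also gave a call. Cldn12 had a log2 fold change of 0.09 (95% interval −0.04 to 0.21). The row named Cldn25 carries the gene ID now named Cldnd1, a claudin-domain protein, and had −0.11 (−0.25 to 0.04). Another 14 claudin rows were too low to test, with 1 to 31 reads each over the 6 libraries. They include Cldn14 (31 reads, the most), Cldn1 (10 reads) and the endothelial claudin Cldn5 (4 reads).

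Among the other tight junction genes 1 of 10 was higher and none lower. Of all tested genes 5.37% were higher, and 12.6% of those that average 100 CPM or more. The riser in this group was Tjp3, which encodes a scaffold that ties claudins to the cytoskeleton. It had 275, 296 and 305 CPM with vehicle and 340, 332 and 334 CPM with retinoic acid, without overlap (log2 fold change 0.20, standard error 0.06, adjusted p = 0.0425). Its relative Tjp1 also had no overlap between groups, with a log2 fold change of 0.18, but was not called (adjusted p = 0.086). F11r, an adhesion molecule of the immunoglobulin superfamily at tight junctions, had 324 ± 6.92 and 360 ± 8.82 CPM (SD, n = 3 in each group), likewise without overlap and not called (adjusted p = 0.0952). With DESeq2 in place of edgeR, F11r, Tjp1 and Cldn7 were called higher (adjusted p = 0.0453 for Tjp1 and 0.047 for Cldn7).

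Lsr recruits the product of Marveld2 to the places where 3 cells meet. The log2 fold change was 0.03 for Lsr (95% interval −0.09 to 0.15), which shares 43.6% of its exon bases with an antisense gene model (Gm4673), 0.04 for Marveld2 (−0.10 to 0.18) and −0.0004 for Marveld3 (−0.14 to 0.14). Ocln, the classical membrane protein of tight junctions, had 0.09 (−0.04 to 0.23). The scaffold gene Cgn had −0.03 (−0.16 to 0.10) and the polarity gene Pard3 −0.04 (−0.18 to 0.09). None of these 6 genes was called, and their intervals leave room for differences of up to 0.23 on the log2 scale.

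In the adherens junction and adhesion group 1 of 5 genes was higher and none lower. The share of higher genes was 5.37% over all tested genes and 12.6% over those that average 100 CPM or more. Ctnnd1, a catenin that keeps cadherins at the membrane, had 844, 824 and 774 CPM with vehicle and 940, 940 and 904 CPM with retinoic acid (log2 fold change 0.19, standard error 0.05, adjusted p = 0.0404). The groups did not overlap. A read-through gene model of GENCODE vM21 (Gm28635) shares 61.2% of the exon bases of Ctnnd1 on the same strand, so its counts could depend on how shared reads were assigned. Cdh1, the E-cadherin gene, was the most abundant junction gene by reads that was not called, at 1809, 1724 and 1691 CPM with vehicle and 1786, 1771 and 1713 CPM with retinoic acid. Its groups overlapped throughout, and the 95% interval of its log2 fold change was −0.10 to 0.12. Ctnna1, which links cadherins to actin (0.13), and Cdh17, a cadherin of the intestine (0.10), had retinoic acid libraries above all vehicle libraries without being called (adjusted p = 0.171 and 0.299). Epcam, at 1509 ± 59.2 and 1393 ± 28.1 CPM (SD, n = 3), had them below (log2 fold change −0.12, adjusted p = 0.206).

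Desmosomal genes went both ways, with 1 of 9 tested members higher and 3 lower (5.37% and 4.09% of all tested genes). Among genes that average 100 CPM or more these shares were 12.6% and 3.6%. Dsp, which anchors keratin filaments to the plaque, had the most reads of the desmosomal plaque genes. It fell from 851, 799 and 880 CPM with vehicle to 670, 697 and 709 CPM with retinoic acid. The groups did not overlap (log2 fold change −0.29, standard error 0.06, adjusted p = 0.00439). Pkp1, a plaque protein best known from stratified epithelia such as skin, had 85.7, 75.1 and 87.3 CPM with vehicle and 59.7, 51.2 and 58.3 CPM with retinoic acid. It too had no overlap (log2 fold change −0.55, standard error 0.08, adjusted p = 0.000591). Dsg3, a desmosomal cadherin of stratified epithelia, was low in all libraries, at 9.77, 7.46 and 6.78 CPM with vehicle and 4.78, 5.83 and 4.90 CPM with retinoic acid (log2 fold change −0.64, standard error 0.18, adjusted p = 0.0379). The neighbouring gene Dsg2, 16763 bases away on chromosome 18 in the same orientation, is the desmoglein of simple epithelia. It rose from 684, 670 and 632 CPM to 816, 761 and 723 CPM (log2 fold change 0.21, standard error 0.06, adjusted p = 0.039). These adjacent cadherin genes thus differed in opposite directions, each without overlap between the groups. Neither call was firm: each was lost when certain single libraries were left out.

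Beside Pkp1 and Dsg3, 2 of 4 tested markers of stratified squamous epithelium were lower and none was called higher (background 4.09% lower). The list of 10 markers, of which 9 are in the table, summed to 204 to 315 CPM with vehicle and 39.5 to 90.4 CPM with retinoic acid. Most of this was Lor, a cornified envelope gene, at 239 ± 60.0 and 52.0 ± 28.5 CPM (SD, n = 3). Krt14 was the other marker to fall (2.06 ± 0.726 and 0.264 ± 0.130 CPM). The remaining tested markers, Krt10 (2.98 and 3.78 CPM) and Krt15 (0.630 and 0.796 CPM), went the other way without being called. Their log2 fold changes were 0.34 and 0.35. The defining basal markers Krt5 and Trp63 had means of at most 0.539 CPM in either group. The part of such cells in the desmosomal differences was not tested.

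The partners of Dsg2 in simple epithelia, Dsc2 and Pkp2, had log2 fold changes of 0.14 and 0.16 and were not called (adjusted p = 0.22 and 0.149). Jup, a plaque protein shared by desmosomes and adherens junctions, had 511, 510 and 521 CPM with vehicle and 464, 461 and 479 CPM with retinoic acid. Its groups did not overlap, but it was not called (log2 fold change −0.13, adjusted p = 0.135). Pkp3 (−0.11) and Pkp4 (−0.02) overlapped between groups. There were 0.718 to 0.838 Dsg2 reads for each Dsp read in vehicle libraries and 1.02 to 1.22 in retinoic acid libraries, so the order of these genes by read number was reversed. For Pkp2 against Pkp1 the ratio was 1.14 to 1.43 with vehicle and 1.89 to 2.29 with retinoic acid. These ratios pair genes that were seen to differ and are descriptions. The 5 remaining desmosomal cadherin rows had 10 to 59 reads over the 6 libraries, with Dsg4 the highest, and were not tested.

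**Figure D3:**
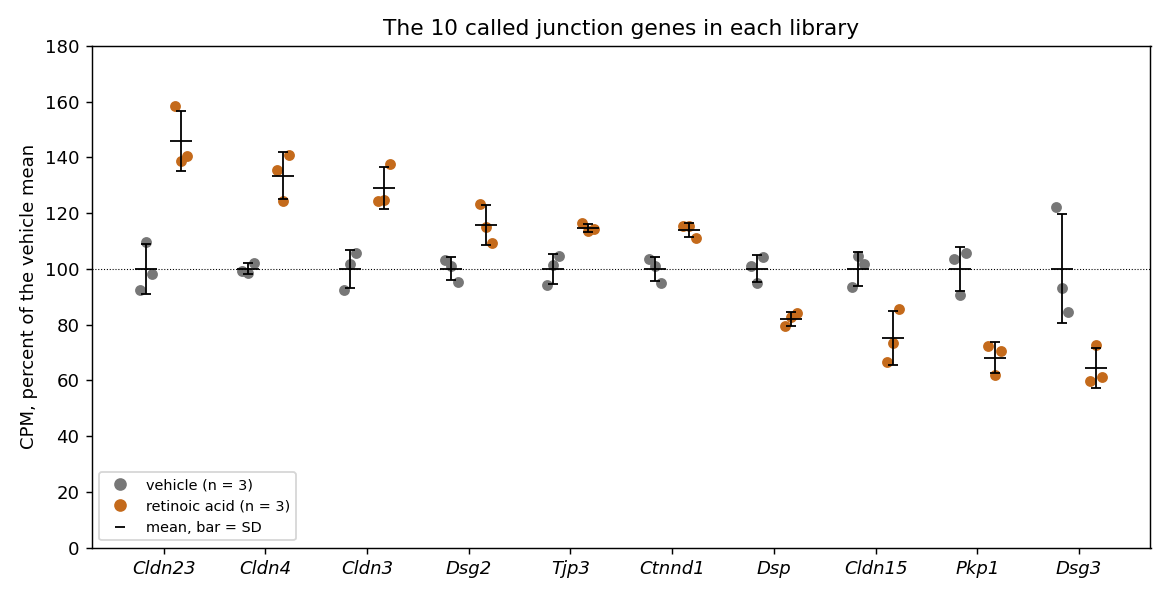
CPM of the 10 called junction genes in each library, in percent of the gene's vehicle mean, with means and SD (n = 3 in each group). In each gene the retinoic acid libraries lie wholly above or wholly below the vehicle libraries, and the narrowest separations are those of Ctnnd1, Tjp3 and Dsg2 among the higher genes.

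Of 18 connexin rows 6 were tested and none was called. An unadjusted p under 0.05 was seen for 3 of the 6, and for 2960 of all 13700 tested genes. DESeq2 also called none of them. Gjb2 was the most abundant connexin, at 78.8, 75.2 and 69.9 CPM with vehicle and 83.8, 91.3 and 77.2 CPM with retinoic acid, with overlapping groups (log2 fold change 0.17, adjusted p = 0.209). Gjb1 varied widely within groups, from 26.9 to 37.7 CPM with vehicle and from 23.8 to 38.6 CPM with retinoic acid, with library 3 the lowest in each (log2 fold change −0.16, 95% interval −0.49 to 0.17). Gja1, the widespread connexin of heart and connective tissue, had under 1 CPM in every library. The 12 untested connexin rows had 1 to 28 reads each, with Gja5 the highest.

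Levels can be compared between genes only per length, so CPM were divided by the kilobases of exon of each gene in GENCODE vM21. On this scale Cldn3 led with vehicle (983 ± 67.6 CPM per kilobase; SD, n = 3), followed by Cldn4 (851 ± 16.7), Epcam (688 ± 27.0), Cdh1 (381 ± 13.3) and Cldn7 (358 ± 5.35). The libraries of these 5 genes did not overlap between neighbours in the order. Cldn15 (236 ± 14.1) and Cldn2 (233 ± 10.5) did overlap with vehicle, but with retinoic acid Cldn15 had 157, 174 and 202 and Cldn2 218, 217 and 230 CPM per kilobase, without overlap. Claudin genes thus held 3 of the 5 highest levels. Among desmosomal genes, Dsp (87.3 ± 4.22), Dsg2 (80.1 ± 3.28) and Jup (79.8 ± 0.951) were close with vehicle, and Dsg2 was the highest of them with retinoic acid (92.7 ± 5.69, against 71.7 ± 2.07 for Dsp). Connexins were lower than Dsp, Dsg2 and Jup, with Gjb2 the highest of them at 31.0 ± 1.86. That was still above some other junction genes such as Pkp2 (19.4) and Pkp1 (16.5). The annotation behind the counts is not given, so lengths, and the order of close neighbours, may differ from those used there.

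**Figure D4:**
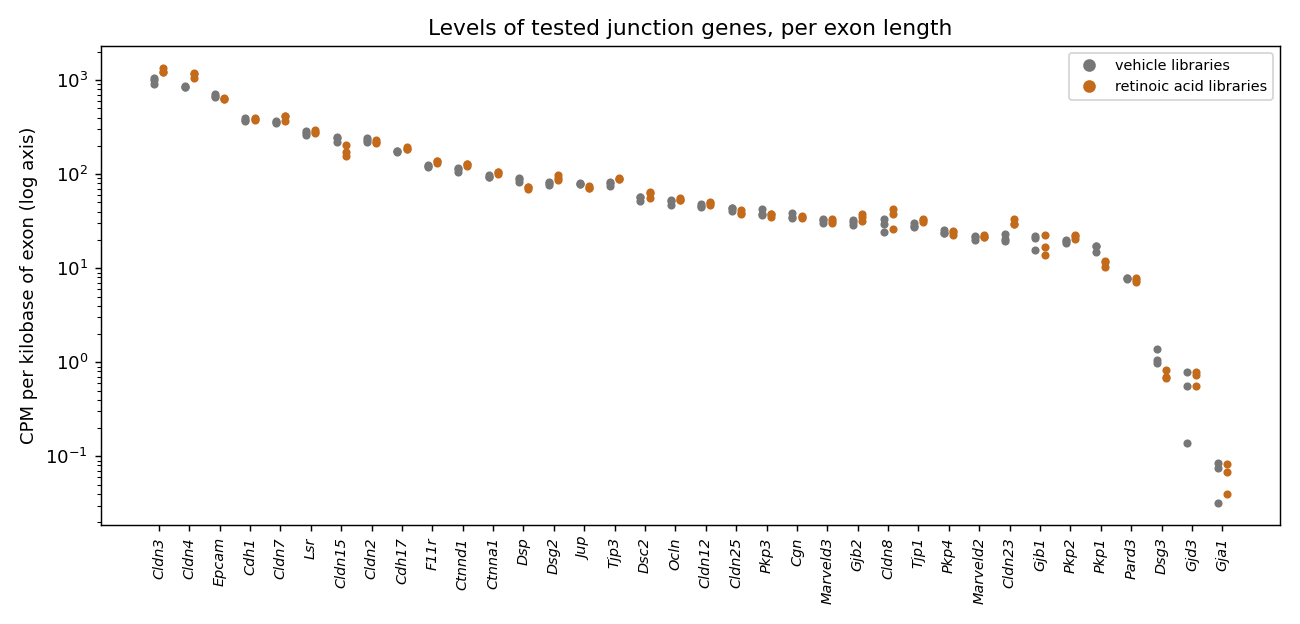
CPM per kilobase of exon (log axis) of 36 of the 39 tested junction genes in each library, ordered by the vehicle mean. Cldn3 and Cldn4 lead in both groups, and Gja1 is the lowest at 0.0639 CPM per kilobase with vehicle.

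Leaving out each library in turn separated the calls by firmness. Cldn3, Cldn4, Cldn23, Cldn15, Dsp and Pkp1 were called whichever library was left out, with adjusted p up to 0.0377 (Cldn15). Ctnnd1 and Dsg2 were called only without retinoic acid library 3 and lost their calls without any other single library (adjusted p up to 0.157 and 0.21). Tjp3 lost its call without library 1 or 2 of either group (up to 0.173). Dsg3 lost it without vehicle library 1 or 2 or retinoic acid library 1 or 3 (up to 0.194), and with DESeq2 (0.0535). The number of higher members was thus 3 without any of vehicle libraries 1 and 2 and retinoic acid libraries 1 and 2, and 10 without retinoic acid library 3.

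A further list of junction and polarity genes held 77 names, older and newer symbols of some genes included. Of these 66 are in the table and 57 were tested, of which 7 were higher and 1 lower (14% called). Of all tested genes 9.46% were called, and 16.2% of those that average 100 CPM or more. The median log2 fold change of the list was 0.02. Pvrl2, a nectin of adherens junctions, averaged 494 ± 9.59 CPM in vehicle and 610 ± 5.76 CPM in retinoic acid libraries (SD, n = 3), a log2 fold change of 0.30 (adjusted p = 0.00179). Ildr1, which like Lsr acts at contacts of 3 cells, rose from 182 ± 11.9 to 237 ± 18.3 CPM (0.38, adjusted p = 0.00277). Shroom3, an actin regulator of apical constriction, had a log2 fold change of 0.37, Igsf5, a tight junction adhesion molecule, 0.33, Plekha7, an adherens junction protein, 0.27, and Actn4, an actin crosslinker, 0.24. Perp, a desmosomal membrane protein (0.20), and Actn1 (−0.20), the lower gene, complete the count and were named after their values were seen. The higher count was 3 without vehicle library 1 or 2 and 4 without retinoic acid library 1, and Actn1 lost its call whichever library was left out.

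Other epithelial markers moved in the same comparison, where 5.37% of all tested genes were higher and 4.09% lower. Of 10 stem cell markers 5 were lower and none higher, with a summed level of 2036 to 2100 CPM with vehicle and 1373 to 1431 CPM with retinoic acid. Of 16 enterocyte markers 3 were higher and 3 lower, and their sum overlapped between the groups (2419 to 3275 and 1462 to 2837 CPM). Of 12 general intestinal epithelial markers 3 were higher and 1 lower, with overlapping sums (13599 to 14680 and 14309 to 15773 CPM). The part of cell composition in the junction gene differences was not tested.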

How the data were processed

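Directional polyA libraries were sequenced from 3 vehicle and 3 retinoic acid samples, per the labels. The authors deposited 1 table of raw read counts per gene for the 6 libraries, with a p-value, an FDR and a log2 fold change from DESeq, per the file headers. The aligner, the annotation and the strand setting were not given in the sources used here, while mm10 is the build per the submitters' processing notes.

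The counts went through edgeR 4.0.16 (R 4.3.3): filterByExpr at its defaults (13700 of 21534 rows kept), TMM scaling, and a quasi-likelihood test with treatment as the only term, two-sided, with Benjamini-Hochberg adjustment over all tested rows and a threshold of 0.05. A standard error is the log2 fold change divided by the square root of F. Replicates of a group differed by 4.09 to 11.13 in chi-square per row, above the value near 1 of sampling noise, so none was counted as a repeat. Alternatives were DESeq2 1.42.0, limma-voom (limma 3.58.1), DESeq2 size factors, other filters, a replicate term and leaving out libraries. The steps were tested on simulated counts.

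Members and lists were chosen with earlier results of these data known. Named genes are every called member, a fixed set of 15 members (Cldn2, Cldn3, Cldn4, Cldn7, Cldn15, Ocln, Tjp1, Cdh1, Epcam, Gjb1, Dsg2, Dsc2, Pkp2, Jup and Dsp), the untested members with most reads (Dsg4, Cldn14 and Gja5) and the 6 genes of the further list with the smallest p. Other members are named to account for the whole group. Marker lists not described in the report gave 1 higher and 2 lower of 9 goblet, 1 and 1 of 6 Paneth, 1 and 2 of 10 enteroendocrine and 0 and 1 of 6 tuft markers. Over all tested genes 5.37% were higher and 4.09% lower. Results of 3 tested members are not reported here, although the counts include them.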

Additional observations from a re-analysis of the deposited data

How the results depend on the processing

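The edgeR test called 6 junction genes higher and 4 lower, 736 and 560 over all tested genes, and 7 and 1 in the further junction list. These counts stayed within 1.5-fold with DESeq2 size factors, the filter of at least 10 counts, DESeq2, limma-voom and, added after seeing the data, without library 3 of both groups (8 and 5 junction genes). With no filter the further list had 0 lower genes. With the replicate number as a block the counts were 13 and 6 junction genes, 1224 and 1052 over all genes, and 11 and 2 in the further list; the 9 gained junction genes were Cldn7, Cldn8, Ctnna1, Dsc2, Epcam, F11r, Jup, Pkp2 and Tjp1. Deviations of same-numbered libraries correlated at 0.128, 0.0975 and 0.258, and each library correlated best with its own number, a hint from the data; the labels name nothing that the numbers share. With 1 library left out, junction genes ran from 3 to 10 higher and 3 to 4 lower, all genes from 443 to 978 higher and 289 to 787 lower, and the further list from 3 to 8 higher and 0 lower each time. The log2 fold change of Cdh1, not called, ran from −0.0070 (without vehicle library 3) to 0.040. Low counts limit what can be said of the 31 untested junction genes, with at most 59 reads each.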
